A study of Homo sapiens with 5 samples.

Results

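The RNAs described here are 203 antisense long noncoding RNAs, transcripts whose gene symbol is that of another gene followed by -AS and, in most cases, a digit. The symbol alone defines the group, and RefSeq lists TP73-AS1 and ABHD11-AS1, for example, as transcribed pseudogenes. They were measured by RNA immunoprecipitation and sequencing (RIP-seq) of the RNA-binding protein PSF in LTAD, a prostate cancer cell line grown here in phenol-red-free medium whose charcoal-stripped serum holds few androgens. Of 25702 genes in the table, 522 carry such a symbol. CTBP1-AS, OIP5-AS1 and EPB41L4A-AS1 were left out by the rule, 202 had a count of 0 in every library, and 114 had counts but a mean under 1 CPM (counts after scaling every library to the same total) over the 5 libraries. The 203 members were chosen by that mean, at 1 CPM or more, which is therefore not a result. Just inside the limit were PRKAG2-AS1 at 1.01 CPM, ENTPD1-AS1 at 1.05 CPM and INKA2-AS1 at 1.06 CPM. Just outside it were SPATA3-AS1 at 0.980 CPM, SEMA3F-AS1 at 0.978 CPM and FMR1-AS1 at 0.965 CPM.

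The groups were 2 PSF-RIP libraries from cells given the code-named small molecule No.10-3 at 5 µM, 1 PSF-RIP library from cells given the vehicle DMSO, and 2 input libraries of lysate RNA, 1 from each treatment. All came from the same line in the same medium. The column names do not tell which input is which treatment, so the inputs served as 1 shared reference. The columns of the No.10-3 libraries are named for the compound alone, were assigned by elimination, and are called libraries 1 and 2 after the columns. The series, by its title, asks whether a small molecule alters the RNA binding of PSF. No control immunoprecipitation is among the 5 samples, and the labels leave unsaid if the No.10-3 libraries stem from separate cultures, so the p-values measure only the spread between these libraries, which may be technical. A difference between PSF-RIP and input can reflect binding to PSF, or any other property that changes an RNA's recovery in the procedure.

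PSF is the product of SFPQ. With NONO and PSPC1 it forms the DBHS family of nuclear proteins, which are found in paraspeckles, the nuclear bodies that NEAT1 RNA scaffolds. PSF takes part in splicing, transcription and nuclear retention of RNA. Antisense long noncoding RNAs are transcribed from the strand opposite to a neighbouring gene, often from a shared, bidirectional promoter, and many stay in the nucleus at low levels. Some act on their sense gene, and for most no function is established.

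The 5′ ends of 6 members are shown as examples of those described below: FGD5-AS1 and ZNF667-AS1, of high level and called lower in PSF-RIP than in input, ZBED5-AS1, ZNF674-AS1 and PRR34-AS1, called lower by a larger change, and C1RL-AS1, called higher. Other members of like level or change are not printed. Each is the first 50 genomic bases from the annotated start, in transcript direction, from RefSeq on GRCh38.p14. Capitals mark TCTT, the pyrimidine motif of the PTB protein after which PSF (PTB-associated splicing factor) was named, searched on the transcript strand only. FGD5-AS1 starts at chr3:14948392-14948441 on the minus strand, ZNF667-AS1 at chr19:56477874-56477923 on the plus strand, and ZBED5-AS1 at chr11:10858217-10858266 on the plus strand. ZNF674-AS1 starts at chrX:46545490-46545539, PRR34-AS1 at chr22:46053846-46053895 and C1RL-AS1 at chr12:7108308-7108357, all on the plus strand.
FGD5-AS1: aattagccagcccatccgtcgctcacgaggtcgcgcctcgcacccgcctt
ZNF667-AS1: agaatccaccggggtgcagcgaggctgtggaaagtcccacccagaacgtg
ZBED5-AS1: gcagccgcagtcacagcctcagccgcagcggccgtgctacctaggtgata
ZNF674-AS1: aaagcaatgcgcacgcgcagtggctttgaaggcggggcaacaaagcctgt
PRR34-AS1: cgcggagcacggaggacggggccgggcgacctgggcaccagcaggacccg
C1RL-AS1: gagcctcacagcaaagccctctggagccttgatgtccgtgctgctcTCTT
Of these windows, that of C1RL-AS1 holds the motif, at its end. The window of PRKCZ-AS1, the other member called higher, is not printed and does not hold it. Of the 168 members with an entry in the promoter table, 20 hold it (11.9%), against 16.0% of all 35116 windows in the table and 11.6% of those of the tested genes. A match in 50 bases is a description of the letters and says nothing of where PSF binds. GC content in these windows had a median of 66% for the members and 68% for the tested genes.

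The members took 0.264% and 0.274% of all counts in the No.10-3 PSF-RIP libraries and 0.275% in the vehicle PSF-RIP library, against 0.0855% and 0.0844% in the inputs. The 95% Wilson interval, which covers counting error only, ran from 0.256 to 0.272% for No.10-3 library 1, the shallowest, and from 0.0812 to 0.0877% for input library 2. These shares depend on what else a library held. The short RNAs RN7SK, RN7SL1, RN7SL2, RPPH1 and RMRP made up 2.63% to 7.81% of the PSF-RIP counts, against 51.7% and 55.0% of the input counts. Counts were therefore scaled with edgeR's TMM factors, which set most genes equal between libraries, and levels are given as normalised CPM, which are CPM on that scale. On this scale the members took 0.148%, 0.133% and 0.143% of the PSF-RIP libraries and 0.221% and 0.231% of the inputs. Their order between PSF-RIP and input thus turns with the scaling.

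Libraries held 1519362 and 3368252 counts with No.10-3, 2181770 with vehicle, and 4010376 and 3083063 in the inputs. Depth limits single members: their median count was 10, 26 and 17 in the PSF-RIP libraries and 10 and 6 in the inputs. All 12 luminal prostate markers looked up were detected, with summed levels of 2334 to 2629 normalised CPM in PSF-RIP and 2203 to 2367 in input. Among the luminal markers KLK3 was low, at 5.33 to 13.3 normalised CPM. The 3 basal markers KRT5, KRT14 and TP63 summed to at most 0.578 normalised CPM in PSF-RIP and were at 0 in input. The 4 stromal markers summed to 45.6 to 62.2 in PSF-RIP and 26.7 to 27.7 in input, mostly COL1A1 and VIM. The 3 neuroendocrine markers summed to 50.1 to 79.1 and 37.3 to 38.2, mostly ENO2. Endothelial and immune markers summed to at most 0.644 and 4.04 in any library.

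Relative to the median of all tested genes, the antisense RNAs as a group stood lower in PSF-RIP than in input. Their median log2 ratio of PSF-RIP to input was -0.76, with quartiles at -1.44 and 0.36, against 0.05 for all 13321 tested genes. With libraries scaled to their total counts instead, the medians were 1.58 for the members and 2.38 for all genes, so the sign turned. A scaling factor moves all genes of a library alike, so the distance of -0.81 between the medians is nearly the same under any scaling by its nature. In all, 138 of 203 members lay below the median of all genes. In bulk lysates, fewer cells with an RNA and less RNA per cell cannot be told apart, and this holds for every level here.

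**Figure D1:**
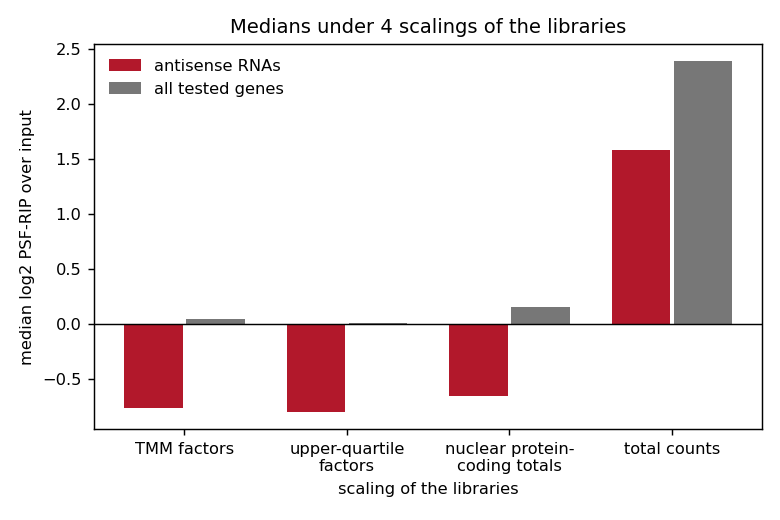
Bars give the median log2 ratio of PSF-RIP to input (vertical axis) under 4 scalings of the libraries, for the 203 antisense RNAs (red) and all 13321 tested genes (grey). The medians are -0.76 against 0.05 with TMM factors and 1.58 against 2.38 with total counts, where both are positive; the gap is nearly constant because a scaling factor moves all genes of a library alike.

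Single members were tested with edgeR's quasi-likelihood test on all 5 libraries, with the mean of the No.10-3 and vehicle PSF-RIP groups set against input and Benjamini-Hochberg adjustment over all 13321 genes at a threshold of 0.05. Lower in PSF-RIP were 40 of 203 members, against 13.6% of all tested genes. Higher were 2 members, against 12% of all genes. With total-count scaling 121 members were called higher, against 84.3% of all genes, and 0 lower, against 0.405%. All 3 PSF-RIP libraries lay below both inputs for 88 members, against 25.1% of genes, and above both for 26, against 30.1%. Without input library 1 the test called 18 members lower, against 6.55% of all genes, and without input library 2 it called 15, against 4.28%. Without the vehicle library it called 23, against 6.52%. Without No.10-3 library 2 it called 10 higher, against 20.3% of all genes.

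The mean over 5 libraries can admit a gene through PSF-RIP alone. This was so for 42 members, which had under 1 CPM in the inputs, while 161 had at least 1 CPM in both and 0 in input alone. Among all tested genes, 1827 passed in PSF-RIP alone and 16 in input alone. Among the 161 members, 40 were called lower and 1 higher, against 15.7% and 12.8% of the 11478 genes that passed in both.

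Other RNA classes give the setting. Of 90 LINC long intergenic noncoding RNAs, 14 were called lower and 1 higher, with a median log2 ratio of -0.27. The 348 RefSeq long noncoding RNAs outside the members had a median of -0.59, with 71 called lower and 3 higher. The share called lower was 20.4% of these, near the 19.7% of the members. The 181 tested sense genes of the members had a median of 0.02, with 20 lower and 32 higher. Both other classes of long noncoding RNA thus had medians below that of all genes, while that of the sense genes was close to it. LINC RNAs were not taken out of the 348, so these classes can overlap and are not separate observations. The classes were not tested against each other.

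**Figure D2:**
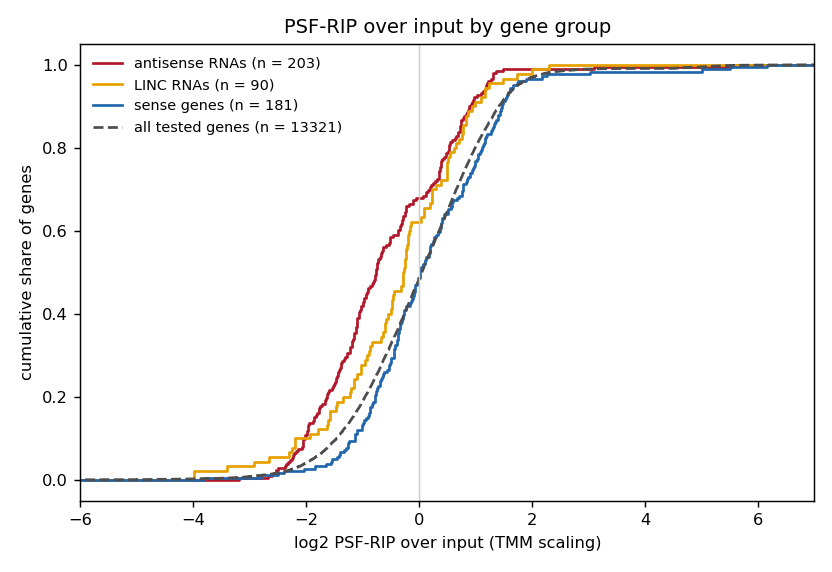
The curves give the cumulative share of genes (vertical axis) up to each log2 ratio of PSF-RIP to input with TMM scaling (horizontal axis), for 203 antisense RNAs, 90 LINC RNAs, 181 sense genes and all 13321 tested genes. The curve of the antisense RNAs lies left of the others over most of its range, with medians of -0.76, -0.27, 0.02 and 0.05 in that order. The 348 other RefSeq long noncoding RNAs, with a median of -0.59, are not drawn.

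The gap to all genes varied with level. Among the 68 members of lowest mean CPM, 1.01 to 3.49, the median log2 ratio was -1.25, against -0.14 for all genes in the same range. It was -0.29 against -0.25 for the next 67 members, up to 8.24 CPM, which differed little from genes of like level. It was -0.73 against 0.10 for the 68 of highest mean CPM, among which 19 were called lower, against 14.9% of all genes in that range. In the lowest and next ranges 10 and 11 were called lower, against 6.90% and 12.7% of genes. Member lengths ran from 447 to 7112 bases, and across members the log2 ratio had a Pearson r of 0.14 with log2 length and 0.15 with log2 mean CPM, values that share the same libraries.

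The 5 members of highest mean CPM did not share a direction. FGD5-AS1, a widely expressed antisense RNA studied in many tumour lines, had 92.8 and 98.8 normalised CPM in the No.10-3 PSF-RIP libraries and 58.2 in the vehicle one, against 252 and 259 in the inputs. All PSF-RIP values lay below both inputs, with a log2 ratio of -1.77 (SE 0.37, adjusted p = 0.000691 in edgeR's test). ZNF667-AS1, an antisense RNA reported as silenced by DNA methylation in many cancers, had 37.4, 31.2 and 30.0 normalised CPM in the same order, against 88.8 and 91.6 in the inputs. Its groups did not overlap either, and its log2 ratio was -1.49 (SE 0.36, adjusted p = 0.00239). Without input library 2 its adjusted p was 0.0773. Under total-count scaling the log2 ratio of FGD5-AS1 was 0.58, without a call. That of ZNF667-AS1 was 0.86, and its call turned to higher, as for 84.3% of all genes. Both ratios were under the all-gene median of 2.38.

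MRPL20-AS1, antisense to a gene for a mitochondrial ribosomal protein, went the other way in level, with 40.7, 31.8 and 42.2 normalised CPM in PSF-RIP against 18.7 and 19.6 in input. The groups did not overlap, but the log2 ratio of 1.03 (SE 0.40) missed the threshold at an adjusted p of 0.0530. TP73-AS1, named for the p53 family gene TP73, had 74.3, 46.1 and 83.4 normalised CPM against 46.4 and 39.1, where No.10-3 library 2 lay between the inputs (log2 ratio 0.72, adjusted p = 0.151). CD27-AS1, antisense to a tumour necrosis factor receptor gene, had 41.4, 44.6 and 45.0 normalised CPM against 38.6 and 30.2. Its PSF-RIP values were nearly equal and just above the inputs, with a log2 ratio of 0.35 and an adjusted p of 0.513.

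**Figure D3:**
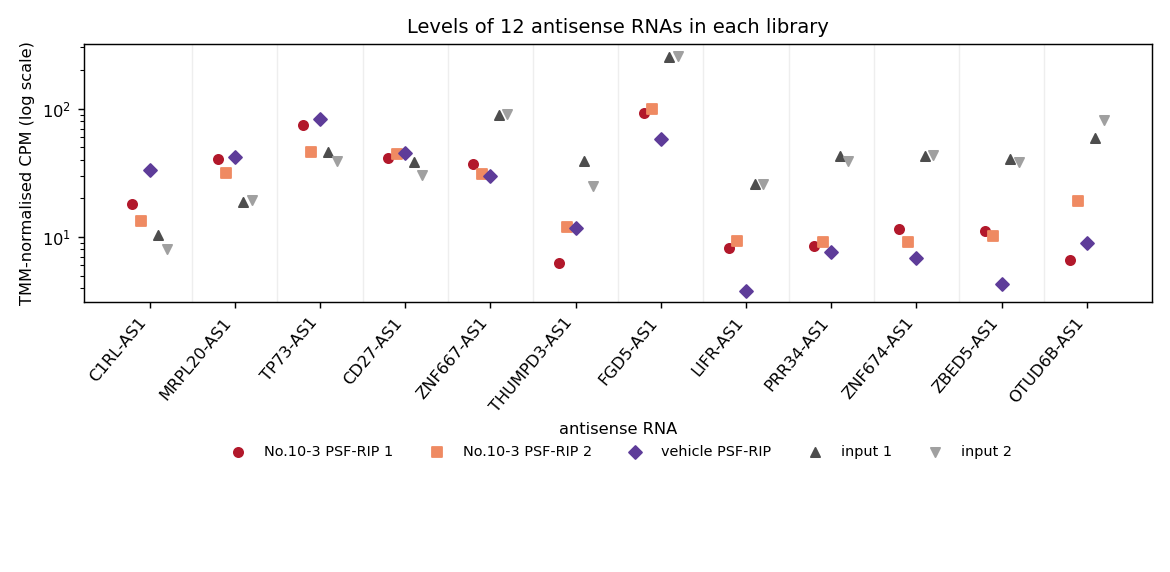
Each point is the normalised CPM (vertical log axis) of 1 of 12 antisense RNAs in 1 library, with the No.10-3 and vehicle PSF-RIP libraries left of the inputs. FGD5-AS1 has 58.2 to 98.8 in PSF-RIP and 252 to 259 in input, while MRPL20-AS1 has 31.8 to 42.2 in PSF-RIP and 18.7 to 19.6 in input; with total counts every one of these ratios is moved up by about the shift of all genes, 2.34.

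Among the members called lower, OTUD6B-AS1 had one of the largest changes. This antisense RNA of a deubiquitinase gene had 6.66 and 19.1 normalised CPM with No.10-3 and 9.06 with vehicle, against 59.2 and 81.8 in the inputs. The No.10-3 libraries were far apart, yet both lay well under the inputs, with a log2 ratio of -2.67 (SE 0.41, adjusted p = 1.32e-05). ZBED5-AS1, whose sense gene encodes a zinc finger protein derived from a DNA transposon, had 11.1, 10.3 and 4.29 normalised CPM against 40.6 and 38.2. Its log2 ratio was -2.54 (SE 0.42, adjusted p = 3.84e-05), and vehicle was the lowest library.

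ZNF674-AS1, beside a zinc finger gene on the X chromosome, had 11.5, 9.10 and 6.91 normalised CPM against 43.1 and 43.6. The inputs were almost equal and the log2 ratio was -2.37 (SE 0.41, adjusted p = 7.11e-05). PRR34-AS1 had 8.51, 9.10 and 7.63 normalised CPM against 43.1 and 39.1, the tightest PSF-RIP values of these 4 RNAs. Its log2 ratio was -2.32 (SE 0.41, adjusted p = 9.56e-05). These 4 and FGD5-AS1 kept their call under each of 12 alternatives except total counts, where the log2 ratios were -0.30 for OTUD6B-AS1, -0.19 for ZBED5-AS1, -0.02 for ZNF674-AS1 and 0.03 for PRR34-AS1.

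The other 6 of the 10 called members with the largest decreases rested on few counts. KANSL1-AS1, antisense to a gene of a histone acetyltransferase complex, had 3, 3 and 2 counts in PSF-RIP against 5 and 9 in input, and a log2 ratio of -3.18 (SE 0.83, adjusted p = 0.00488). TMCO1-AS1, ZNF252P-AS1, ZNF687-AS1, FAM222A-AS1 and TSC22D1-AS1 had log2 ratios of -2.60, -2.54, -2.49, -2.29 and -2.25 with at most 13 counts in any library. Each of these 6 lost its call when 1 input library was left out, with adjusted p from 0.0529 for ZNF687-AS1 without input library 1 to 0.439 for FAM222A-AS1 without the same library. Leaving out the vehicle library also ended the calls of ZNF687-AS1 (0.104) and FAM222A-AS1 (0.213).

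Both members called higher also depended on single libraries. C1RL-AS1, antisense to a complement-related serine protease gene, had 18.1 and 13.4 normalised CPM with No.10-3 and 33.4 with vehicle, against 10.3 and 8.002 in the inputs. All PSF-RIP values lay above the inputs, with vehicle the highest, and the log2 ratio was 1.30 (SE 0.46, adjusted p = 0.0344). Its adjusted p was 0.312 without the vehicle library, 0.183 without input library 1 and 0.320 without input library 2. PRKCZ-AS1, antisense to the gene of an atypical protein kinase C, had 9, 14 and 20 counts in PSF-RIP against 1 and 0 in input. It reached the mean of 1 CPM only through PSF-RIP, the side where it is high, so its call gives no support. The pooled ratio was 8.33, with a 95% counting interval of 1.42 to 337, beside an adjusted p of 0.0416. It was 0.0568 without No.10-3 library 1, 0.153 without vehicle, 0.109 without input library 1 and 0.280 without input library 2.

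Members not called, whose PSF-RIP libraries all lay above both inputs, included SLFNL1-AS1, with 7, 4 and 10 counts against 0 and 0. This and the 4 members named next had under 1 CPM in the inputs and entered the set only through PSF-RIP, where they are high, so their position gives no support. Against a floor of 3 counts over both inputs, SLFNL1-AS1 was at least 1.36-fold higher in PSF-RIP, and its adjusted p was 0.0694. ZBTB11-AS1, SNAI3-AS1, RUSC1-AS1 and PTGES2-AS1 had log2 ratios of 1.49, 1.37, 1.27 and 1.22 with adjusted p of 0.170 to 0.425. Their input counts were 1 to 3 in each library. In all, 15 members had 3 or fewer counts over both inputs.

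Antisense RNAs named for ZNF zinc finger genes, a group picked after their values were seen, held 10 members. Called lower were 6 of these: ZNF252P-AS1, ZNF687-AS1, ZNF674-AS1, ZNF561-AS1, ZNF667-AS1 and ZNF436-AS1, against 13.6% of all tested genes, a share not comparable as a test since the group was picked on these values. ZNF561-AS1 had 7.03, 4.48 and 4.77 normalised CPM in PSF-RIP against 15.5 and 19.6 in input. ZNF213-AS1 at a log2 ratio of -1.07 (adjusted p = 0.0837) was not called, nor were ZNF582-AS1, ZNF503-AS2 and ZNF790-AS1, at 0.36, 0.29 and 0.24. The median of the 10 was -1.49, against 0.05 for all genes.

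A list of well-known antisense RNAs had 22 members. Of these, 4 were called lower (FGD5-AS1, TMPO-AS1, ZNF667-AS1 and THUMPD3-AS1) and 0 higher, with a median log2 ratio of -0.55 against 0.05 for all genes. The 4 calls are 18.2% of the list, near the 13.6% of all genes called lower. THUMPD3-AS1 had 6.29, 11.98 and 11.7 normalised CPM in PSF-RIP against 39.3 and 24.9 in input, a log2 ratio of -1.62 (adjusted p = 0.00514) that gave an adjusted p of 0.189 without input library 1. TMPO-AS1, antisense to the gene of the nuclear lamina protein thymopoietin, had 5.55, 1.73 and 1.19 normalised CPM against 10.9 and 4.45, where the groups overlapped. Its log2 ratio of -1.99 had an adjusted p of 0.0231, which was 0.180 without the vehicle library and 0.461 without input library 1.

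Several antisense RNAs studied in cancer had no call. ZEB1-AS1, beside a gene for a transcription factor of epithelial-mesenchymal transition, had 8.88, 6.35 and 6.20 normalised CPM against 9.01 and 16.9 (log2 ratio -0.90, adjusted p = 0.173). THAP9-AS1 had 14.8, 30.0 and 22.4 normalised CPM against 32.2 and 23.1, with overlapping groups (log2 ratio -0.30, adjusted p = 0.621). TTN-AS1, antisense to the gene of the giant muscle protein titin, had 15.5, 12.3 and 20.02 against 18.7 and 29.3 normalised CPM (log2 ratio -0.52, adjusted p = 0.374). FOXD2-AS1 had 1 and 7 counts in the inputs, which set its log2 ratio of 0.07 beside an SE of 0.75. The remaining 13 members of the list, TP73-AS1 aside, had no call either and ran from SLC2A1-AS1 at -2.37 (adjusted p = 0.0597) to KDM4A-AS1 at 1.12 (adjusted p = 0.387).

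For 202 members the table holds the sense gene, and for 181 of these it passed the same level filter. The strand setting of the counting is not given in the sources used here, so where a pair overlaps, reads of the antisense RNA and of its sense gene cannot be told apart. The antisense RNA had the lower log2 ratio of PSF-RIP to input in 126 pairs and the higher in 55, with a median difference of -0.86 and quartiles of -1.72 and 0.11. It was at least 2-fold lower in 84 pairs and at least 2-fold higher in 20. A difference within a pair does not move much with the scaling: with total counts the antisense RNA was higher in 51 pairs. Across pairs the log2 ratios had a Pearson r of 0.30 and a Spearman rho of 0.26, from shared libraries. Per length, the level of the antisense RNA relative to its sense gene had a median of 0.271 in PSF-RIP and 0.463 in input.

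**Figure D4:**
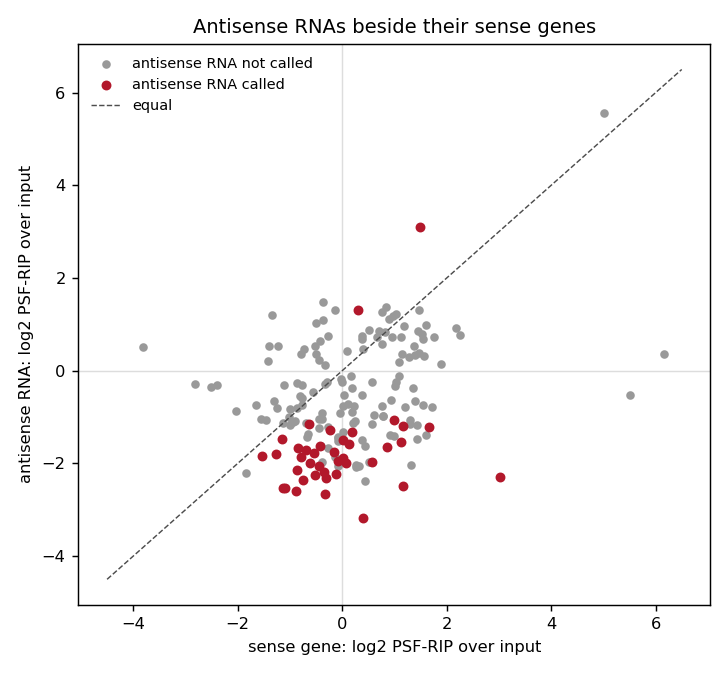
Each point is 1 of 181 pairs, with the log2 ratio of PSF-RIP to input of the sense gene on the horizontal axis and of its antisense RNA on the vertical axis, TMM scaling. Points below the dashed line of equality, 126 of them, have the antisense RNA lower than its sense gene; red points are antisense RNAs with a call.

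In 4 of the 181 pairs the antisense RNA was called lower while the sense gene was called higher. In all pairs, 38 antisense RNAs were called lower and 32 sense genes higher. FAM222A-AS1 had 2.22, 1.59 and 0.477 normalised CPM in PSF-RIP against 6.44 and 2.67 in input, and FAM222A had 17.4, 13.3 and 16.4 against 0.644 and 3.56. The sense log2 ratio was 3.03 (adjusted p = 0.000972 in edgeR's test). FAM222A had 1 and 4 counts in the inputs, on average under 1 CPM. It passed the level filter only through PSF-RIP, where it is high, so its call gives no support. ZNF687-AS1 stood beside ZNF687 at 1.16. As given above, FAM222A-AS1 and ZNF687-AS1 rested on few counts and lost their calls without 1 input library. MAP3K14-AS1 was at -1.22 beside MAP3K14, a kinase of noncanonical NF-kappa-B signalling, at 1.66 (adjusted p = 0.0394 and 0.0399 in edgeR's test). HEXA-AS1 was at -1.55 beside HEXA, a lysosomal enzyme gene, at 1.13 (adjusted p = 0.0428 and 0.0451). In 4 others, both were called lower: ZNF252P-AS1, ZBED5-AS1, ZNF436-AS1 and NIFK-AS1 with their sense genes. The log2 ratio of ZBED5-AS1 was -2.54, against -1.14 for ZBED5 (adjusted p = 0.0322). PRKCZ-AS1 and PRKCZ were both called higher, at 3.10 and 1.48, but PRKCZ-AS1 entered the set only through PSF-RIP, so its call gives no support.

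The largest gap with the antisense RNA on top was that of TPT1-AS1. It had 5.92, 3.47 and 2.38 normalised CPM in PSF-RIP against 1.29 and 3.56 in input, with overlapping groups. Its input counts were 2 and 4, or 0.499 and 1.30 CPM, on average under 1 CPM. TPT1-AS1 thus entered the set only through PSF-RIP, where it is high, so its position gives no support. TPT1, which encodes the abundant translationally controlled tumour protein and has processed pseudogenes that may share its reads, had 239, 238 and 187 normalised CPM against 2632 and 3266. The log2 ratios were 0.51 for TPT1-AS1 (adjusted p = 0.656) and -3.80 for TPT1 (adjusted p = 2.26e-07). BOLA3-AS1, ARHGAP5-AS1 and TOB1-AS1, at -0.29, -0.35 and -0.30 with no call, stood beside BOLA3, ARHGAP5 and TOB1 at -2.81, -2.50 and -2.39, all called lower.

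Pairs were placed by their gene models in a RefSeq table of GRCh38.p14, a later build than the hg19 named for the files. In 85 pairs the genes lay on opposite strands with starts within 1000 bases of each other, the layout of a shared promoter. There the median log2 ratio was -1.12 for the antisense RNA and -0.16 for the sense gene, with a Pearson r of 0.09 across pairs. Called lower were 21 of these 85 antisense RNAs, against 19.7% of all members and 13.6% of all tested genes. In 47 pairs with overlapping spans and starts further apart the medians were -0.38 and 0.41, with an r of 0.26. Of these 47 antisense RNAs 8 were called lower, beside the same shares of members and genes. The 5 opposite-strand pairs without overlap and 44 pairs that could not be placed had medians of -0.37 and -0.69 for the antisense RNA, against 0.07 and 0.46 for the sense gene. In each layout the antisense RNA had the lower median, and the layouts were not tested against each other.

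No member differed between No.10-3 and vehicle PSF-RIP at an adjusted p under 0.05 in edgeR's quasi-likelihood test, nor did any other tested gene, so that 0% of all genes were called. The lowest adjusted p was 0.783 among the members. At an unadjusted p under 0.05 there were 7 members, against 6.35% of all genes, and DESeq2 called 0 members and had 0 members and 273 genes at that unadjusted threshold. The vehicle group is a single library, and its spread was taken from the No.10-3 and input pairs. The input pair holds a library of each treatment, so any difference between treatments in lysate RNA adds to that spread. Recovery by PSF and abundance of the RNA in the lysate cannot be told apart in a difference between PSF-RIP libraries.

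The members as a group had a median log2 ratio of No.10-3 to vehicle of 0.0023, with quartiles of -0.47 and 0.48, against 0.04 for all genes. Both No.10-3 libraries lay above vehicle for 62 members and below it for 71, against 33.3% and 32.4% of all genes. The No.10-3 libraries were themselves at least 2-fold apart at 28 members, against 15.8% of all genes. At least 2-fold from vehicle in both were 6 members upward and 4 downward, against 2.22% and 1.13% of all genes.

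ZBED5-AS1 stood highest over vehicle by the smaller of its changes, with 11.1 and 10.3 normalised CPM with No.10-3 against 4.29 with vehicle. Its log2 ratio was 1.30 (SE 0.59, unadjusted p = 0.0336, adjusted p = 0.783 in edgeR's test). LIFR-AS1, antisense to the gene of the leukaemia inhibitory factor receptor, had 8.14 and 9.24 against 3.81 normalised CPM, a log2 ratio of 1.19 (adjusted p = 0.789). Both were among the RNAs called lower in PSF-RIP than in input, and the No.10-3 values lay nearer to the inputs than the vehicle value did. RHPN1-AS1, TMCC1-AS1, FAM222A-AS1 and ST7-AS1 had log2 ratios of 1.30, 1.62, 1.85 and 2.06 with 9, 3, 2 and 2 counts in the vehicle library.

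SLC16A1-AS1, antisense to the gene of the lactate transporter MCT1, had 2.96 and 1.88 normalised CPM with No.10-3 against 7.87 with vehicle, a log2 ratio of -1.76 (SE 0.68, adjusted p = 0.783). SLC25A25-AS1, antisense to a mitochondrial carrier gene, had 6.29 and 3.75 against 13.1 normalised CPM, a log2 ratio of -1.44 (adjusted p = 0.783). C1RL-AS1 had a log2 ratio of -1.10 on the values given above, and KTN1-AS1, RAB11B-AS1 and ZNF582-AS1 had -1.67, -1.16 and -0.90. Without No.10-3 library 1, which held the fewest counts, the test called 4 members lower: SLC25A25-AS1 at -1.81 (adjusted p = 0.0271), NOP14-AS1 at -1.59 (0.0314), SLC16A1-AS1 at -2.06 (0.0408) and C1RL-AS1 at -1.33 (0.0428). In the same fit 2.74% of all genes were called lower. That fit compares 1 treated with 1 vehicle library and takes its spread from the inputs, with the treated and vehicle libraries assumed to vary like them. Without No.10-3 library 2 these calls did not hold, and the share of all genes in that fit is not given here.

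**Figure D5:**
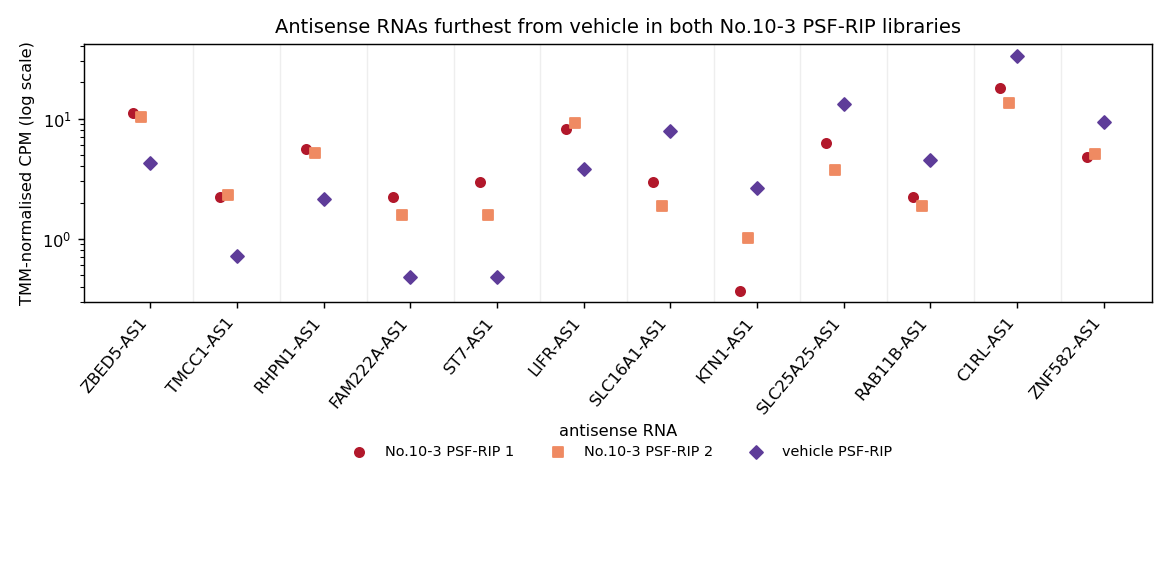
Points give the normalised CPM (vertical log axis) of 12 antisense RNAs in the No.10-3 PSF-RIP libraries, left, and the vehicle PSF-RIP library, right. The 6 on the left lie above vehicle in both libraries, such as ZBED5-AS1 at 11.1 and 10.3 against 4.29, and the 6 on the right lie below it, such as SLC16A1-AS1 at 2.96 and 1.88 against 7.87; they were named for these distances and no adjusted p is under 0.783.

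Changes of the antisense RNAs and of their sense genes with No.10-3 were almost unrelated across the 181 pairs, with a Pearson r of 0.06 and a Spearman rho of 0.01, as a description over pairs that share the same 3 libraries. ZBED5-AS1 had a log2 ratio of 1.30 beside 0.34 for ZBED5, and C1RL-AS1 had -1.10 beside 0.34 for C1RL.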

How the data were processed

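The deposited counts are whole numbers of reads per gene and library, keyed by Entrez ID beside a gene length in bases, and were taken as raw. The submitters' processing notes name TopHat2 2.1.0, Bowtie2 2.2.6, Bowtie and hg19, with no role for any. The sources used here do not state how reads were counted, on which strand, or what was done with multiply mapped reads. The library kit was an Illumina stranded one, per the labels' protocols. Of the genes, 1962 have no symbol and were kept.

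The 13321 genes that averaged 1 CPM or more over the 5 libraries were scaled with TMM factors and fitted with 3 groups in edgeR 4.0.16 (R 4.3.3; glmQLFit, glmQLFTest), which leaves 2 residual degrees of freedom, moderated across genes. PSF-RIP over input is the mean of the No.10-3 and vehicle coefficients minus input. The standard error (SE) is the log2 change divided by the square root of F. Changes per library used a prior count of 2. The script was tested on simulated data. DESeq2 1.42.0, other scalings, filters and left-out libraries were the alternatives.

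The members and lists were chosen with earlier results of these data known. Named members are the 5 of highest mean CPM, the called members of largest change (up to 10 per direction), up to 5 uncalled ones whose groups do not overlap where fewer than 5 passed, the 6 highest and 6 lowest for No.10-3 in both libraries at a mean of at least 2 CPM, a list of well-known antisense RNAs and those beside the CPM limit. The individual result of 1 member of that list is not reported here. Other names in the text were chosen after their values were seen. All 203 members matched a RefSeq gene table of GRCh38.p14 by Entrez ID; its coordinates served only for pair layouts and the printed 5′ ends.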

Additional observations from a re-analysis of the deposited data

How the results depend on the processing

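Scaling decides the sign of the ratios of PSF-RIP to input. With total counts the members' median was 1.58, with 121 called higher and 0 lower, against 84.3% and 0.405% of all genes. The median of all genes moved by 2.34 with it. Input counts lie mostly in 5 short RNAs, and how much of that shift they make up was not tested. The same scaling turned the sign of members that include FGD5-AS1 (0.58), ZNF667-AS1 (0.86), PRR34-AS1 (0.030), FAM222A-AS1 (0.015), TSC22D1-AS1 (0.069), ZEB1-AS1 (1.45), TMPO-AS1 (0.33), MCM3AP-AS1 (1.18), DLG1-AS1 (0.23), MAPKAPK5-AS1 (1.62), TTN-AS1 (1.84), LOXL1-AS1 (0.067), TAPT1-AS1 (1.70), PCBP1-AS1 (2.07), THUMPD3-AS1 (0.74) and THAP9-AS1 (2.06). With nuclear protein-coding totals, chosen after seeing the data, the median was -0.66 with 32 lower and 3 higher. A mean of at least 5 CPM, with 106 members, gave 26 lower, 1 higher and -0.59. DESeq2, which gave 75 members an adjusted p, called 18 lower and 0 higher, at a median of -0.82; all 18 are among the 40. A fit with 2 groups gave 34 lower, 0 higher and -0.71. The 161 members with at least 1 CPM in input and in PSF-RIP, also chosen after seeing the data, gave 1 higher and -0.98. Upper-quartile factors (40 lower) and no filter (37 lower) changed little. Counts given here without a share of all genes show only how calls move with the processing. The distance from the all-gene median to that of the members ran from -0.87 with no filter to -0.61 at a mean of at least 5 CPM.

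Leaving out each library in turn gave 15 to 52 members lower, 0 to 10 higher and medians of -0.79 to -0.65. It gave 46 to 58 pairs with the antisense RNA higher, and with both at a mean of at least 5 CPM 28 of 84 pairs had it. Ranges crossed 0 for members such as FOXD2-AS1 (-0.92 to 2.29), GAS6-AS1 (-0.041 to 0.95), PSMD6-AS2 (-1.09 to 5.00) and PCBP1-AS1 (-0.69 to 0.52), none of them called. For No.10-3 against vehicle, 0 to 4 members were called and the median ran from -0.12 to 0.024. No paired analysis was possible because the vehicle PSF-RIP group has 1 library and the input columns carry no treatment. Except where stated, the cause was not tested. Counts of 6 to 26 for the median member limit what single members can show.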
